A study of Mus musculus with 6 samples.

Results

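The genes described here are 36 genes of the sterol regulatory element-binding protein (SREBP) pathway, chosen by symbol from a list of sterol synthesis, fatty acid synthesis and SREBP regulator genes. All 36 were among the 15912 rows of the deposited table. The sterol arm holds 18 of them, the regulators 5 and the fatty acid arm 13. SREBPs are transcription factors that are made as proteins anchored in the membrane of the endoplasmic reticulum. When sterols are low, the carrier Scap takes them to the Golgi, where proteases free the part that enters the nucleus, and when sterols are high, the Insig proteins hold Scap back. The product of Srebf2 acts mainly on genes of cholesterol synthesis and uptake, and that of Srebf1 mainly on genes of fatty acid synthesis, so the pathway links the lipid content of a cell to its lipid synthesis. Microglia, the macrophages of the brain, make cholesterol and fatty acids and can also store lipid as cholesteryl esters and triacylglycerols in droplets.

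RNA sequencing of hippocampal microglia with few or many lipid droplets was compared, 3 libraries of each. All mice were male C57BL/6, 3 months old, and all had received lipopolysaccharide (LPS, a bacterial product that activates innate immune cells) at 1 mg/kg into the peritoneum for 4 days. They were perfused 24 h after the last dose, and the hippocampi of 2 mice were pooled for a sample. Live CD11b+CD45lo cells, about 10000 a sample, were sorted as BODIPYlo or BODIPYhi by BODIPY, a dye of neutral lipids, so the BODIPY-low libraries are the control of the BODIPY-high libraries and no untreated animal is in the comparison. Mice given PBS were not analysed here.

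Promoter sequence shows where some known binding letters of the pathway lie in members whose values are given below. SREBPs bind sterol regulatory elements and act together with the general factors NF-Y, which binds CCAAT, and Sp1, which binds GGGCGG. RefSeq windows of GRCm38.p6, from 250 bases before to 50 after the start of a transcript, were available for 29 of the 36 members. Sqle, Fdps, Fdft1, Stard4, Scd1, Scd2 and Fads1 had no window and were not searched. The 200 bases before the start are given for Hmgcs1 and Ebp of the sterol arm (chr13:119690151-119690350, plus strand, and chrX:8193513-8193712, minus strand). They are also given for Fasn and Elovl1 of the fatty acid arm (chr11:120824548-120824747, minus strand, and chr4:118427893-118428092, plus strand). Each runs 5′ to 3′ on the strand of the gene, and capitals mark the sterol element TCACNCCAC, the NF-Y letters CCAAT, which read as ATTGG on the other strand, and the Sp1 letters GGGCGG, which read as CCGCCC there.
Hmgcs1: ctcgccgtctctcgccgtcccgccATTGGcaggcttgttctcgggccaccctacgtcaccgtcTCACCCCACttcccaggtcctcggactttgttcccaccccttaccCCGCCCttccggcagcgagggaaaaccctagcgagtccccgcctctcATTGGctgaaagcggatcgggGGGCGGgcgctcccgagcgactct
Ebp: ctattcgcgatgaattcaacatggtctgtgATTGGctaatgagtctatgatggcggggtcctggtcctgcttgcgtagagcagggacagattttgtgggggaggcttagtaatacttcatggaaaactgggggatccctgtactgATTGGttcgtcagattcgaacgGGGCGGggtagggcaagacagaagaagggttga
Fasn: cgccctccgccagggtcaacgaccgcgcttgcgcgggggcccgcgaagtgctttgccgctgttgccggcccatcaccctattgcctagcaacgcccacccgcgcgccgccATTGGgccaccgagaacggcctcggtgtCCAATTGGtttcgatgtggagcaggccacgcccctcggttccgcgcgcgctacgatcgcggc
Elovl1: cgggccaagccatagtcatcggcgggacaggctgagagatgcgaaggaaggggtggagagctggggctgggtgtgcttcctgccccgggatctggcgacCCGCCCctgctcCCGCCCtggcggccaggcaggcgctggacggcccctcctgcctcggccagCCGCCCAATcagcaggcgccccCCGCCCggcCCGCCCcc
In Hmgcs1 the sterol element lies between ATTGG and CCGCCC. In Fasn 2 copies of CCAAT on opposite strands overlap, and in Elovl1 a CCAAT overlaps a CCGCCC. Ebp has 2 copies of ATTGG and 1 of GGGCGG.

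Across members and both strands, TCACNCCAC was found in the windows of 1 of 29 genes, Hmgcs1, against 1.36% of 9745 tested genes with a window and 1.44% of all 27025 genes with a window. A longer form of the element that was also searched, which overlaps with these letters when both match, was in 0 of the 29. CCAAT was in 13 of 14 sterol genes, 4 of 5 regulators and 7 of 10 fatty acid genes, against 42.9% of tested genes. GGGCGG was in 13 of 14, 5 of 5 and 6 of 10, against 67.8%. Genes with several transcript starts have several windows, and a match is a run of letters, not a measured site of binding. Other spellings of the element and sequence outside the windows were not searched, so a gene without a match may still hold a site.

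Each library held 34899413 to 39220494 reads recovered from the table. Values below are normalized counts, which are reads per gene divided by the authors' size factor of the library, so 1 read is worth about 1 normalized count. The 10 microglial markers summed to 2253267 to 2637039 in BODIPY-low and to 1786129 to 2428584 in BODIPY-high libraries, with 0 of 10 past the test. Their fitted log2 changes were all negative, from -0.31 to -0.05 with a median of -0.20. Markers of several other cell types were higher in the BODIPY-high gate. The 8 markers of choroid plexus summed to 308, 480 and 2327 in BODIPY-low and 39766, 52094 and 51999 in BODIPY-high libraries 1, 2 and 3, and 8 of 8 passed the test. The 12 markers of border-associated macrophages summed to 3430, 2641 and 7742 against 23608, 31454 and 89535, and 10 of 12 passed. Of the other marker lists, 4 of 8 tested astrocyte, 2 of 4 oligodendrocyte precursor, 1 of 6 oligodendrocyte, 1 of 4 mural and 1 of 2 erythroid markers passed, all higher, and no tested endothelial, neuronal, neutrophil, monocyte or lymphocyte marker did. BODIPY-high library 3 stood apart with the most macrophage, oligodendrocyte (14672, against 7181 to 8406 in the other libraries) and neutrophil marker counts and the fewest microglial ones. The part of these cells in the results below was not tested, and in sorted bulk samples fewer cells of a type and less RNA per cell cannot be told apart.

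Differences were tested gene by gene with limma on log2(normalized count + 1), and a gene passed with a Benjamini-Hochberg adjusted p under 0.05 over all 12767 genes tested. All 36 members entered the test. In 32 every library held at least 10 normalized counts, and 1, Scd1, entered through the BODIPY-high libraries only. Fads2 and Me1 reached 10 in only 1 BODIPY-low library each, so they also needed their BODIPY-high libraries to enter. Of all genes tested, 2.03% passed as higher and 0.0235% as lower in BODIPY-high libraries. One member, Sqle, passed as higher and none as lower.

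In the sterol arm 1 of 18 genes, Sqle, was higher in the BODIPY-high libraries, about 2.28-fold, and the other 17 did not pass the test. Of the 18 fitted changes 16 were positive, with a median log2 change of 0.22, against 49.2% positive and a median of -0.004 over all genes tested. The count of positive changes was 14 with edgeR and 15 with DESeq2. At an unadjusted limma p under 0.05, which 8.03% of tested genes reached as higher, Sqle and Hmgcs1 were the 2 members counted.

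**Figure D1:**
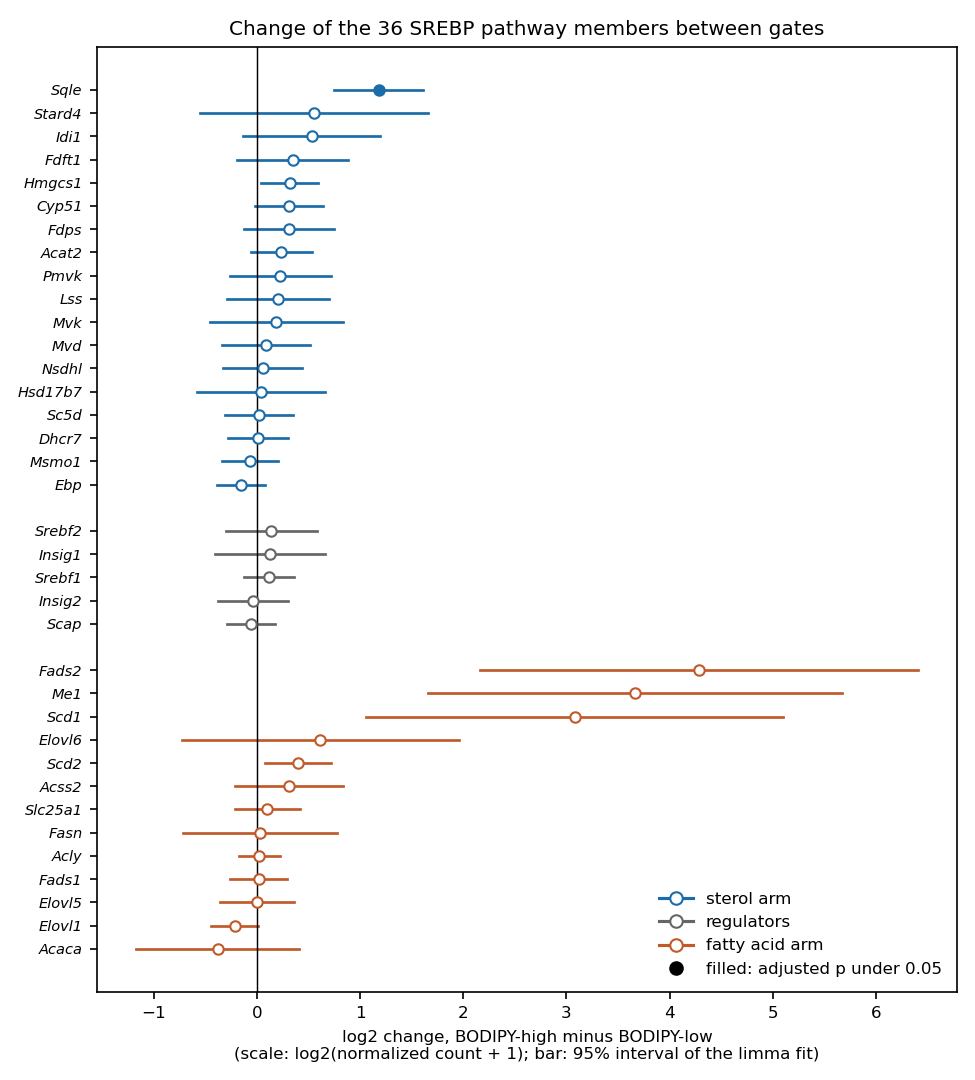
Fitted log2 change (BODIPY-high minus BODIPY-low, on log2 of normalized count + 1) of the 36 members, with the 95% interval of limma as a bar, by arm. Sqle is the filled point, 16 of 18 sterol and 11 of 13 fatty acid changes lie above 0, and the intervals of Fads2, Me1 and Scd1 are wide and lie far to the right.

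Sqle encodes squalene epoxidase, which adds oxygen to squalene and is a rate-limiting enzyme of sterol synthesis. The gene lies on chr15:59315077-59331192 (mm10, plus strand), and none of its exon length is shared with another annotated gene. It stood at 191, 180 and 167 normalized counts in BODIPY-low and 374, 407 and 447 in BODIPY-high libraries 1, 2 and 3. The gates were far apart relative to the spread within them. The means were 180 ± 11.8 and 409 ± 36.3 (SD, n = 3 per gate). The log2 change was 1.18 ± 0.19 (SE; 95% interval 0.75 to 1.62; limma adjusted p = 0.0194), with 508 reads in BODIPY-low and 1268 in BODIPY-high libraries. The adjusted p was 0.0231 with edgeR and 6.52e-06 with DESeq2 on recovered reads, and 0.00581 in limma with the library number as a block. Leaving out 1 library kept the ratio of means between 2.17 and 2.38 but ended the call in 4 of 6 cases. The limma adjusted p was then 0.0511 without BODIPY-high library 1, 0.124 without 2, 0.104 without 3 and 0.0634 without BODIPY-low library 2.

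The steps around Sqle were read in pathway order. Acat2, Hmgcs1, Mvk, Pmvk, Mvd and Idi1 make the isoprene unit from acetyl-CoA, Fdps and Fdft1 join the units into squalene, and Sqle, Lss and Cyp51 turn squalene into the sterol ring and take off its first methyl group. All 11 of these had positive fitted changes, with a median of 0.31 and a range of 0.09 (Mvd) to 1.18 (Sqle). Within library numbers 1, 2 and 3, 7, 9 and 11 of the 11 were higher in the BODIPY-high library. The changes of Mvd and Mvk turned negative in some fits with 1 library left out. Without Sqle the other 10 had a median of 0.28 and none passed, with limma adjusted p from 0.377 to 0.937. The 6 enzymes that act after Cyp51 (Msmo1, Nsdhl, Hsd17b7, Ebp, Sc5d and Dhcr7) had a median of 0.02, a range of -0.16 to 0.06 and adjusted p from 0.709 to 0.990. Within library numbers 1, 2 and 3, 2, 5 and 1 of these 6 were higher. Other enzymes of these later steps, which are not members, had changes of 0.68 (Tm7sf2) and 0.10 (Lbr), neither past the test. With Tm7sf2 the later steps thus overlapped the range of the earlier ones. This division of the arm was made after the values were seen, does not hold every enzyme of the pathway and has no test.

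Hmgcs1, the synthase that makes HMG-CoA and the member with the sterol element above, had 1617, 1417 and 1306 normalized counts in BODIPY-low and 1682, 1946 and 1771 in BODIPY-high libraries. Every BODIPY-high library was above every BODIPY-low library, by a small margin for number 1. The log2 change was 0.32 ± 0.12 (SE; 95% interval 0.04 to 0.59; limma adjusted p = 0.377), so it did not pass. Acat2, which joins acetyl-CoA into acetoacetyl-CoA, varied little within gates. Its values were 575, 563 and 579 against 680, 673 and 671, with means of 572 ± 8.31 and 675 ± 4.42 (SD, n = 3 per gate). The gates were apart, but the log2 change of 0.24 ± 0.13 (SE) did not pass the limma test (adjusted p = 0.620), which shares its estimate of spread over genes of like level. Of the sterol arm, Acat2, Hmgcs1 and Sqle (3 of 18) had no overlap between gates as higher and none as lower, against 10.4% and 5.95% of all genes tested.

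Cyp51, the lanosterol demethylase, had 1300, 1145 and 978 normalized counts in BODIPY-low and 1276, 1607 and 1366 in BODIPY-high libraries. The gates overlapped, since BODIPY-high library 1 lay under BODIPY-low library 1. Its log2 change was 0.31 ± 0.15 (SE; limma adjusted p = 0.518). Ebp, a sterol isomerase with the highest level per length of the arm, had the lowest fitted change of the 18. It stood at 2631, 2824 and 2744 against 2655, 2498 and 2226, with BODIPY-high library 1 inside the BODIPY-low range, and its log2 change was -0.16 ± 0.10 (SE; limma adjusted p = 0.709). The other 14 sterol genes, Acat2 among them, had log2 changes of -0.06 to 0.55 and limma adjusted p of 0.617 to 0.990. Idi1 (0.53) and Stard4, a carrier of sterols between membranes (0.55), were at the upper end, with 95% intervals of -0.13 to 1.20 and -0.55 to 1.66. Stard4 rested on 84.5, 71.2 and 24.2 against 89.1, 72.8 and 72.7 normalized counts, and BODIPY-low library 3 was the low value.

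Reads on exons shared with another annotated gene may be given to the wrong gene or left out. This holds for the same strand and, since the libraries do not keep strand, for the opposite one. Which of these applies depends on the annotation behind the counts, which is not given. For Fdps 77.4% of the exon length overlaps a gene of its own strand. Genes of the opposite strand overlap 20.9% of the exon length for Fdft1, 16.0% for Hmgcs1, 11.3% for Acss2 of the fatty acid arm, 10.7% for Idi1, 8.16% for Lss and 4.22% for Cyp51. Their values are uncertain to that extent.

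**Figure D2:**
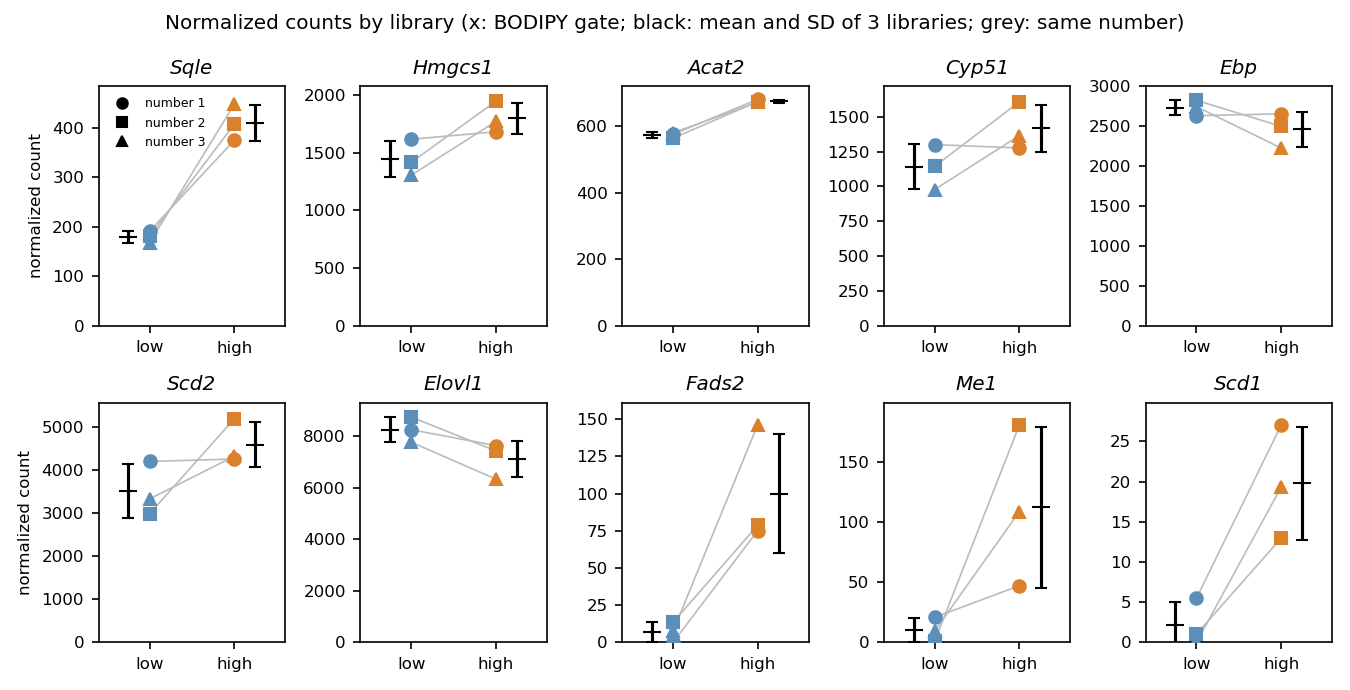
Normalized counts (y axis, from 0) of 10 members in each BODIPY-low and BODIPY-high library, with grey lines between libraries of the same number and black bars for the mean and SD of 3 libraries. Sqle is 167 to 191 in BODIPY-low and 374 to 447 in BODIPY-high libraries, the gates of Cyp51 and Ebp overlap, and Fads2, Me1 and Scd1 stand near 0 in the BODIPY-low gate.

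No regulator passed the test. All 5 were well measured, with 338 normalized counts or more in every library, and their log2 changes ran from -0.06 to 0.14 with limma adjusted p of 0.816 to 0.971. The count was 0 of 5 at an unadjusted p under 0.05 and 0 of 5 with edgeR, DESeq2 and the block. Srebf1, which encodes SREBP-1a and SREBP-1c, had 3448, 2952 and 2825 normalized counts in BODIPY-low and 3336, 3491 and 3162 in BODIPY-high libraries. The ranges overlapped, and the 95% interval of its log2 change was -0.12 to 0.36. Srebf2, which encodes SREBP-2, had 1275, 1031 and 1033 against 1012, 1083 and 1660. BODIPY-high library 3 was the high value, the interval was -0.30 to 0.58, and without that library the log2 change was -0.08.

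Scap, the sterol-sensing carrier of SREBPs, had 3578, 2913 and 3081 against 2978, 3049 and 3152 normalized counts (interval of the log2 change -0.29 to 0.18). Its BODIPY-high values all lay inside the BODIPY-low range, and 18.6% of its exon length overlaps another gene. Insig1, a retention protein that is itself a target of SREBPs, had 592, 338 and 427 against 395, 505 and 562 (interval -0.41 to 0.67). Insig2, its relative, had 3206, 2862 and 2718 against 2776, 3517 and 2357 (interval -0.38 to 0.30). Neither gate was apart for either gene. Within library number 1 all 5 regulators were lower in the BODIPY-high library, with a median difference of -0.26 on the log2 scale, and within number 2 all 5 were higher, with a median of 0.24. Within number 3, 4 of 5 were higher, with a median of 0.16.

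The fatty acid arm had 0 of 13 genes past the limma test, and 4 as higher and 0 as lower at an unadjusted p under 0.05 (Fads2, Me1, Scd1 and Scd2), against 8.03% and 2.27% of all genes tested. Scd1 could only be counted as higher, since its BODIPY-low values were all under the filter. Fads2 and Me1 reached the filter of 10 in only 1 BODIPY-low library each, so they too depended on their BODIPY-high values to enter. With the library number as a block 2 of 13 rose, Fads2 and Me1, against 4.37% of all genes tested as higher and 0.462% as lower. In edgeR with the same block 1 of 13 passed, Fads2 (adjusted p = 0.0143), against 499 of all 12767 genes tested as higher and 50 as lower. DESeq2 also called Fads2 and Me1, against 3.63% of genes tested as higher and 0.251% as lower. edgeR called 0 of 13, against 1.74% as higher and 0.00783% as lower. Of the 13 fitted changes 11 were positive, or 10 with TMM scaling or edgeR, against 49.2% of all genes tested in the main fit. Their median was 0.10. The sign of Scd1 was fixed by the filter, and Fads2 and Me1 also needed their BODIPY-high values. These 3 are therefore no support for a direction of the arm. Changes of 3 genes were far from the rest: Fads2, Me1 and Scd1 had 4.28, 3.67 and 3.08, and the other 10 lay between -0.38 (Acaca) and 0.62 (Elovl6).

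Acly, which makes cytosolic acetyl-CoA from citrate, Fads1, a desaturase of polyunsaturated fatty acids, and the elongases Elovl1 and Elovl5 were among the most abundant members, together with Scd2, a desaturase that makes monounsaturated fatty acids. These 5 genes held 90.6 to 94.3% of the counts of the arm in each library. The sum of the arm was 39261 ± 2719 normalized counts in BODIPY-low and 39971 ± 2538 in BODIPY-high libraries (SD, n = 3 per gate). Acly, Fads1 and Elovl5 had log2 changes of 0.02, 0.02 and 0.005, with 95% intervals of -0.18 to 0.22, -0.26 to 0.29 and -0.35 to 0.36. Each of these 3 changes turned negative when a library was left out, and that of Elovl5 also with TMM or edgeR scaling.

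Scd2 had 4205, 2990 and 3335 normalized counts in BODIPY-low and 4262, 5195 and 4324 in BODIPY-high libraries. All BODIPY-high libraries were above all BODIPY-low libraries, but BODIPY-low library 1 was close to them. The means were 3510 ± 627 and 4594 ± 521 (SD, n = 3 per gate), and the log2 change was 0.40 ± 0.14 (SE; limma adjusted p = 0.325; 0.127 with the block). Elovl1, an elongase of very long saturated and monounsaturated chains, went the other way, with 8255, 8746 and 7772 against 7636, 7430 and 6335. The gates did not overlap, and the log2 change of -0.21 ± 0.10 (SE) did not pass (limma adjusted p = 0.530; 0.153 with the block). No overlap between gates was seen for 5 of the 13 as higher (Acss2, Me1, Scd1, Scd2 and Fads2) and 1 as lower (Elovl1), against 10.4% and 5.95% of all genes tested. Scd1 is among the 5 although it entered the test through its BODIPY-high values only, and Fads2 and Me1 also needed their BODIPY-high values to enter.

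Acaca, the acetyl-CoA carboxylase of the first committed step, had the lowest fitted change of the arm. Its values were 103, 90.8 and 101 in BODIPY-low and 49.0, 91.7 and 94.7 in BODIPY-high libraries, so the low value was that of BODIPY-high library 1. The log2 change was -0.38 ± 0.35 (SE; limma adjusted p = 0.822). Fasn, the fatty acid synthase, had 634, 453 and 666 against 615, 350 and 944 normalized counts, with a log2 change of 0.03 (95% interval -0.72 to 0.78; limma adjusted p = 0.990). Its spread was wide in both gates and its sign changed with the library left out. Slc25a1, the citrate carrier, and Acss2, an acetyl-CoA synthetase, had changes of 0.10 and 0.31 (limma adjusted p = 0.890 and 0.755).

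Fads2, the desaturase that acts before Fads1 on polyunsaturated fatty acids, had 0, 13.4 and 7.37 normalized counts in BODIPY-low and 75.1, 78.8 and 146 in BODIPY-high libraries. BODIPY-high library 3 was the highest and the gates were far apart. Reads summed to 20 over the BODIPY-low and 313 over the BODIPY-high gate, which is a scaled ratio of 14.3 (exact 95% counting interval 9.13 to 23.8). The log2 change was 4.28 ± 0.94 (SE). It did not pass the main limma test (adjusted p = 0.0613), passed with the block (0.00736) and with DESeq2 (6.63e-05), and did not with edgeR (0.0765). The ratio of means was 14.4, or 27.1 when BODIPY-low library 2 was left out and 9.63 when number 1 of that gate was.

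Me1, the cytosolic malic enzyme that supplies NADPH, had 20.8, 1.03 and 9.48 against 47.0, 180 and 109 normalized counts. The gates did not overlap, but the spread was large in both. Reads were 29 and 346, a ratio of 10.9 (exact 95% counting interval 7.48 to 16.6). The log2 change was 3.67 ± 0.88 (SE; limma adjusted p = 0.0909; 0.0360 with the block; 0.000889 with DESeq2). With edgeR its adjusted p was 0.110, and 0.0611 with the block. The ratio of means was 10.7, and 21.3 without BODIPY-low library 1. Scd1, a close relative of Scd2, had 5.49, 1.03 and 0 against 27.0, 13 and 19.3 normalized counts, from 6 and 61 reads (ratio 9.32, interval 4.04 to 26.4). BODIPY-low library 1 held most of the low reads, and the ratio of means was 9.10 with it and 38.3 without it. Scd1 passed neither the main limma test (adjusted p = 0.179) nor the block (0.0846). Where no read was found, up to 3 reads remain possible, or 2.76 to 3.29 normalized counts by library. Intervals of read ratios cover counting error only.

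Fads2 and Me1 were higher in the gate where markers of other cells were higher: the choroid plexus sum was 308 to 2327 in BODIPY-low and 39766 to 52094 in BODIPY-high libraries, and the border-associated macrophage sum 2641 to 7742 and 23608 to 89535. Within gates the order matched in some cases and differed in others. In the BODIPY-high gate Fads2 rose from library 1 to 2 to 3, as the macrophage sum did. Me1 there was lowest in library 1 and highest in library 2, as the choroid plexus sum was, while the macrophage sum was highest in library 3. In the BODIPY-low gate Me1 was highest in number 1, where the choroid plexus sum was lowest. Fads2 was highest in number 2 of that gate, where the macrophage sum was lowest. Sqle, the member that passed, also rose from library 1 to 2 to 3 in the BODIPY-high gate, as the macrophage sum did. In the BODIPY-low gate Sqle was lowest in number 3, where both sums were highest. None of the markers on these 2 lists was at 0 in every BODIPY-low library. The part of those cells in these values was not tested.

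**Figure D3:**
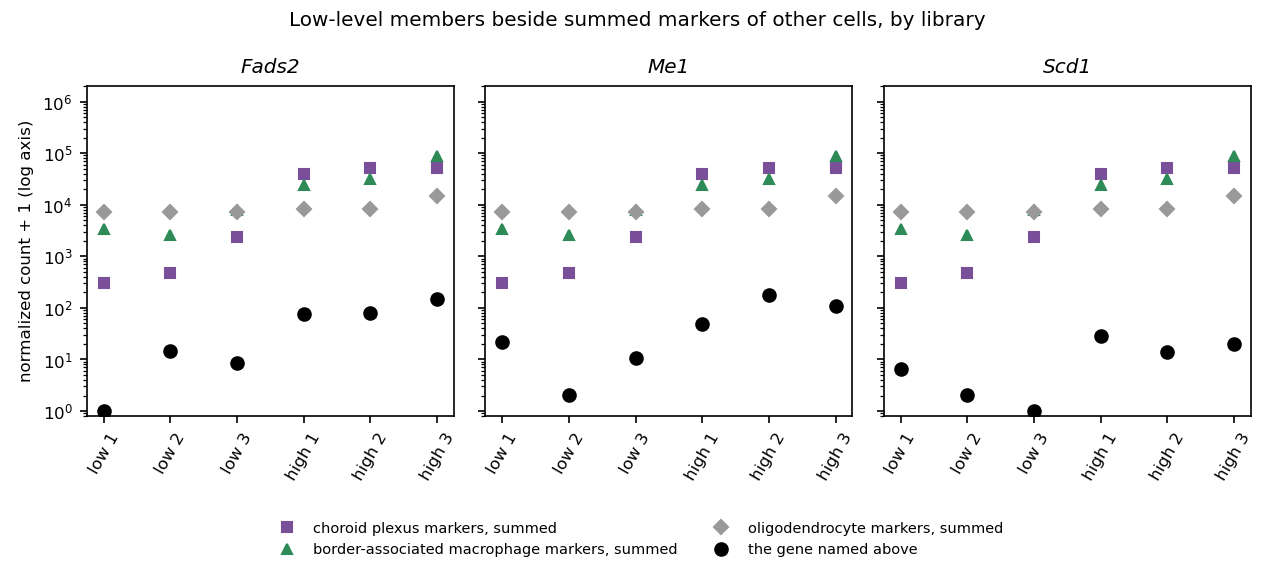
Normalized count + 1 (log axis) of Fads2, Me1 and Scd1 in each library (black) beside the summed markers of choroid plexus, border-associated macrophages and oligodendrocytes. The 3 genes stay at or under 20.8 normalized counts in BODIPY-low libraries, where the choroid plexus sum is 308 to 2327, and stand at 13 to 180 in BODIPY-high libraries, where it is 39766 to 52094.

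Set side by side, the median log2 change of the sterol arm was 0.22 and that of the fatty acid arm 0.10, a difference of 0.12. This difference has no test and did not hold when libraries were left out: it was -0.14 and 0.009 when BODIPY-high library 2 or 3 was left out, and 0.24 and -0.04 when BODIPY-low library 2 or 3 was. The fatty acid median of 0.10 includes Scd1, Fads2 and Me1, which needed their BODIPY-high values to enter the test. Over genes with a mean of at least 50 normalized counts across the 6 libraries the medians were 0.22 for 18 sterol genes and 0.03 for 11 fatty acid genes. The latter include Fads2 and Me1, which reached this cut only through their BODIPY-high values. Within library numbers 1, 2 and 3 the sterol medians were 0.02, 0.26 and 0.28, with 10, 15 and 13 of 18 genes higher in the BODIPY-high library. The fatty acid medians were 0.01, 0.23 and 0.37, with 8, 11 and 8 of 13 higher. Over all 12767 genes 6425, 6550 and 6303 were higher, with medians of 0.002, 0.01 and -0.005. In library number 1 both arms thus lay near the median of all genes, and in numbers 2 and 3 both lay above it. The summed counts of the sterol arm were 14527 ± 945 in BODIPY-low and 15614 ± 836 in BODIPY-high libraries (SD, n = 3 per gate), a ratio of 1.07, against 1.02 for the fatty acid arm.

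**Figure D4:**
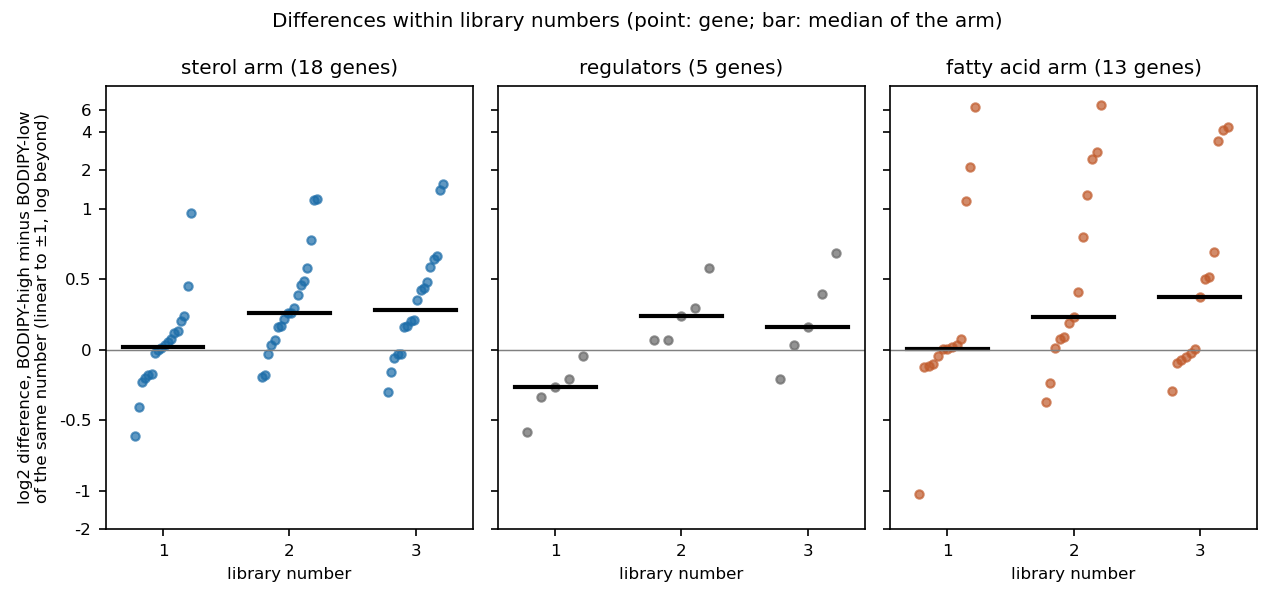
Log2 difference between the BODIPY-high and BODIPY-low library of each number (y axis, linear to 1 and logarithmic beyond), with a point for each gene and a bar for the median of the arm. The sterol medians are 0.02, 0.26 and 0.28, the fatty acid medians 0.01, 0.23 and 0.37, and the regulators are all under 0 for number 1 and all above 0 for number 2.

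Levels per length of exon, in normalized counts per kb averaged over the 6 libraries, set the members in order. In the sterol arm they ran from 13.3 (Stard4) to 1490 (Ebp), with Msmo1 at 1227, Dhcr7 at 491, Hmgcs1 at 466, Fdps at 427 and Sqle at 107, and the median was 241. Among regulators Insig2 was at 984, Srebf1 at 745, Scap at 739, Srebf2 at 233 and Insig1 at 174. The fatty acid arm had the widest range, from 2.27 (Scd1), 3.10 (Elovl6) and 9.29 (Acaca) to 2320 (Fads1), 2936 (Acly) and 3965 (Elovl1), with a median of 60.7. The median of all tested genes with a length was 218. These means pool both gates, and related enzymes stood apart by different amounts in each. Per length, Fads1 was 502 and 926 times Fads2 in BODIPY-low libraries 2 and 3 (library 1 had no Fads2 read) and 45.0 to 112 times in BODIPY-high libraries. Scd2 was 679 and 2568 times Scd1 in BODIPY-low libraries 1 and 2 (library 3 had no Scd1 read) and 140 to 355 times in BODIPY-high libraries.

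**Figure D5:**
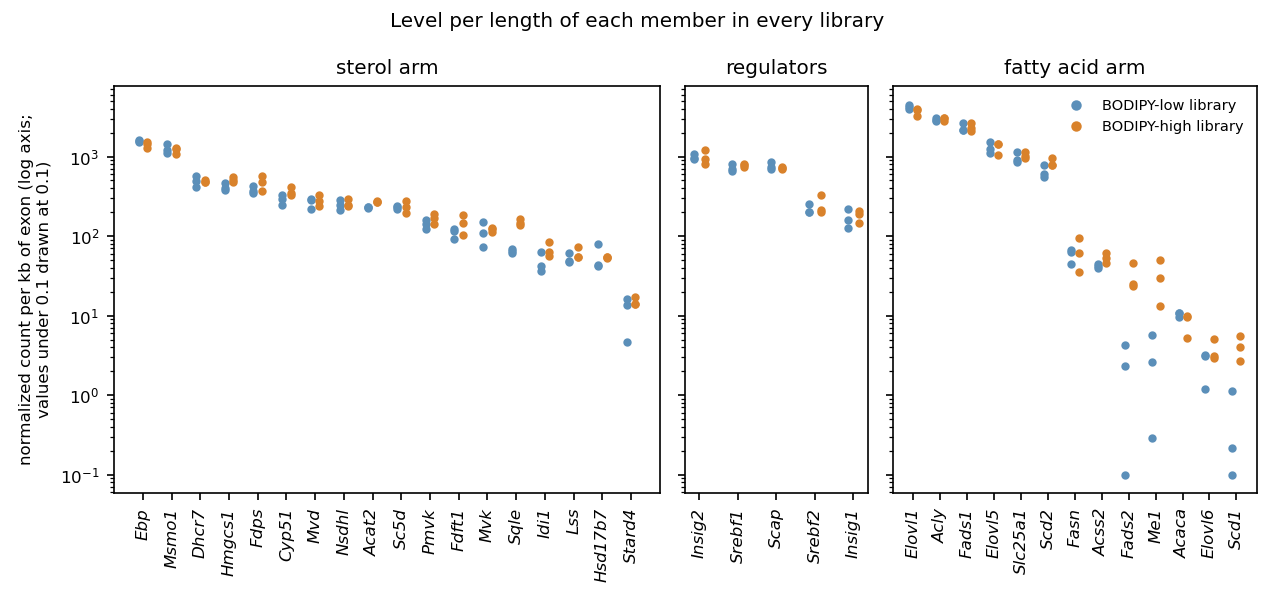
Normalized count per kb of exon (log axis, values under 0.1 drawn at 0.1) of each member in the 6 libraries, by arm. Fatty acid members span 2.27 (Scd1) to 3965 (Elovl1) as means, and the BODIPY-low and BODIPY-high points separate widely for Scd1, Fads2 and Me1.

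Of other listed genes of the pathway, 45 were in the deposited table and 42 of these were tested. The table held 7 of 8 listed other sterol genes and 19 of 20 listed other fatty acid genes. Of the 42, 3 passed as higher and 0 as lower, against 2.03% and 0.0235% of all genes tested. By group, 1 of 7 other sterol genes, 0 of 6 genes of the isoprenoid branch, 0 of 13 other genes of SREBP regulation and 2 of 16 other fatty acid genes passed. The 2 were elongases of very long chains. Elovl7 (chr13:108214404-108285683, mm10) had 16.5, 21.7 and 29.5 normalized counts in BODIPY-low and 78.1, 125 and 200 in BODIPY-high libraries, a log2 change of 2.46 ± 0.45 (SE; limma adjusted p = 0.0300). Elovl4 (chr9:83778692-83806277, mm10) had 0 reads in BODIPY-low libraries and 38.0, 56.8 and 30.3 normalized counts in BODIPY-high libraries. Its 128 reads were 39.1 times a floor of 3 reads for the whole gate, with an exact lower limit of the read ratio of 31.3 (limma adjusted p = 0.0109). Elovl4 entered the test through the BODIPY-high libraries only, so it could only be counted as higher and its call is no support for the list. Both elongases were apart between gates, and both were low in the gate where the choroid plexus and border-associated macrophage sums were low. The part of those cells in the values of the elongases was not tested. Both calls were lost in some of the fits that left out 1 library. Elovl4 was lost without BODIPY-high library 2 or 3 (limma adjusted p = 0.105 and 0.0530). Elovl7 was lost without the same libraries (0.160 and 0.146) and when BODIPY-low library 1 or 2 was left out (0.0900 and 0.0919). Calls over all genes fell in these fits as well. They went from 262 to 15 and 59 without BODIPY-high library 2 and 3, and to 135 and 117 without BODIPY-low library 1 and 2.

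The genes of smallest p among the rest did not pass. Tm7sf2, a sterol reductase, had 69.1, 76.3 and 66.3 against 123, 123 and 96.6 normalized counts (limma adjusted p = 0.463). Fads3, a desaturase of the Fads cluster, had 126, 114 and 74.8 against 171, 156 and 190 (0.395). Both were higher in every BODIPY-high library. Aacs, which makes acetoacetyl-CoA from acetoacetate, had a log2 change of 0.25 (limma adjusted p = 0.608). The isoprenoid enzymes Nus1, Pdss2 and Ggps1 had changes of -0.17, -0.26 and -0.13, and the ubiquitin ligases Rnf145 and Rnf139 of 0.13 and -0.20, with limma adjusted p of 0.697 to 0.846. Sp1, the factor that binds GGGCGG, had a change of -0.39 (limma adjusted p = 0.644).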

How the data were processed

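The authors' deposited table held a normalized signal for each gene in each library, that is, read counts scaled by a size factor of the library. Per the series' design text and the submitters' processing notes, reads were checked with FastQC 0.11.4, aligned with STAR 2.5.3a to mm10 (the notes also list mm9), counted by STAR per gene, and tested with DESeq2. The annotation and strand column behind the counts are not given in the sources used here. Libraries were made with SmartSeq v4 and Nextera XT, which do not keep strand, per the labels. Every value was a whole multiple of the worth of 1 read within 0.05 of a read (100% in each library), so reads were recovered. Of 15912 rows 23 had names turned into dates.

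The test was limma-trend (limma 3.58.1, R 4.3.3), two-sided, with gate as its term, on log2 of the normalized count + 1, for genes with at least 10 in 3 of 6 libraries. edgeR 4.0.16 and DESeq2 1.42.0 on recovered reads, other pseudocounts, filters and scalings, a block and leaving out libraries were alternatives. On simulated data of this comparison (12639 genes) limma found 41% of 100 genes changed 2-fold and 99% of 100 changed 4-fold. The changed genes were drawn from those with a mean of at least 50 normalized counts, and all genes were given the same dispersion (0.0633). These shares may therefore not hold for genes with fewer reads or a greater spread. The main fit has no block. Library numbers met the criterion for pairs, so block values stand beside results whose call they change: deviations from the gate means correlated at 0.354, 0.244 and 0.363 for the same numbers and at -0.0951 to -0.255 for others. The labels do not say whether same-numbered libraries come from the same pool, or samples of a gate from separate animals, so the p-values speak only of the spread among these samples, which may be technical. Coordinates, exon lengths and overlaps are from GENCODE M21 (mm10). The members and lists were chosen with earlier results of these data known. Values in every library were given for members that passed with or without the block, all regulators, and in each arm the 3 of smallest p, the largest rise and fall and the highest level per length. Acat2, Scd2, Stard4 and Fasn were added after their values were seen. Results of some single genes are not reported here.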

Additional observations from a re-analysis of the deposited data

How the results depend on the processing

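Genes past the limma test numbered 262 in all, 617 with the replicate block, 549 with the replicate block in edgeR, 496 with DESeq2, 132 with a filter at 50 normalized counts, and 15 (without BODIPY-high library 2) to 273 when 1 library was left out. Sterol members past it were 1, or 0 to 1 with 1 library left out. Fatty acid members were 0, and 2 with DESeq2, with a pseudocount of 5 and with the replicate block, 1 with the replicate block in edgeR and 0 to 1 with 1 library left out. Other pathway genes were 3, or 0 to 2 with 1 library left out. The sterol minus fatty acid difference of medians was 0.12, or -0.14 to 0.24. Pairing by number changed no other call of a member.

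All sign changes were of genes that passed no test of their own. With 1 library left out the log2 change ran from -0.007 to 0.069 for Acly, -0.098 to 0.115 for Dhcr7, -0.104 to 0.151 for Elovl5, -0.080 to 0.111 for Fads1, -0.313 to 0.402 for Fasn, -0.118 to 0.349 for Hsd17b7, -0.062 to 0.342 for Insig1, -0.192 to 0.097 for Insig2, -0.142 to 0.030 for Msmo1, -0.037 to 0.190 for Mvd, -0.090 to 0.441 for Mvk, -0.045 to 0.154 for Nsdhl, -0.097 to 0.145 for Sc5d, -0.118 to 0.030 for Scap and -0.081 to 0.276 for Srebf2. With edgeR it was -0.0081 for Dhcr7, -0.0046 for Elovl5 and -0.033 for Hsd17b7, and with DESeq2 -0.027 for Hsd17b7. For Elovl5 it was -0.0073 with TMM scaling and -0.0072 with the replicate block in edgeR. The cause was not tested, beyond the fewer samples of the fits that leave out a library. Depth limits Fads2, Me1, Scd1 and Elovl6, which held few reads in the BODIPY-low gate.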

Other observations

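Ratios of levels per length between related members were read within each library, where library scaling cancels. Sqle stood at 0.149 to 0.162 of Hmgcs1 in BODIPY-low and 0.264 to 0.319 in BODIPY-high libraries. Against Cyp51 it was 0.209 to 0.244 and 0.361 to 0.466, against Lss 1.08 to 1.45 and 2.03 to 2.96, and against Fdft1 0.531 to 0.660 and 0.801 to 1.32. The gates did not overlap in any of these 4 ratios, which share Sqle as numerator. Srebf1 over Srebf2 was 3.19 to 3.38 in BODIPY-low libraries and 3.89, 3.81 and 2.25 in BODIPY-high libraries 1, 2 and 3, so library 3 lay below and the other two above the BODIPY-low range. Acly over Fasn was 42.4 to 63.2 and 29.6 to 86.7, a wider range in the BODIPY-high gate. These ratios were chosen after the values were seen and have no test.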
